A study of Mus musculus with 10 samples.

Results

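Phase II conjugation enzymes attach a polar group to drugs, steroids, bile pigments and other small molecules, which makes them easier to excrete in bile or urine. Sulfotransferases (SULT) transfer sulfate from PAPS, UDP-glucuronosyltransferases (UGT) transfer a sugar, most often glucuronic acid from UDP-glucuronic acid, and glutathione S-transferases (GST) transfer glutathione. All of these reactions are major functions of the hepatocyte, and several members are textbook targets of the xenobiotic receptors CAR and PXR, of the dioxin receptor AHR or of the oxidative stress factor NRF2. The members described here were chosen by gene name. They are the protein-coding genes of the count tables whose symbols begin with Sult and a digit, with Ugt1a, Ugt2a, Ugt2b or Ugt3a, or with Gst followed by a class letter and a digit. These were 63 of 41388 genes, with 21 SULT, 20 UGT and 22 GST genes, and Ugt2a1 was not analysed here. Of the 63, 45 passed the filter of more than 1 CPM (reads of a gene scaled to a common library total) in at least 1 library and were tested, with 8 SULT, 17 UGT and 20 GST genes.

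Liver RNA was sequenced from 10 male C57B/6J mice aged 12 weeks, with 1 library per mouse, so that replicates are separate animals. WT Fasting mice (n = 3) carried 2 floxed Nampt alleles (Nampt LoxP/LoxP) without Cre and were fasted for 24 h according to the labels. WT Refed mice (n = 2) had the same genotype and were fasted for 22 h and refed for 2 h. NAMPT LKO Fasting mice (n = 5) carried the same floxed alleles with Albumin-cre, which acts in hepatocytes, and were fasted for 24 h. The study's text differs from these labels, since it describes a shorter fast and random-fed controls. Its legend also gives a larger WT Fasting group than the 3 mice analysed here. The comparisons addressed are fasted against refed liver with intact Nampt, and fasted liver with against without hepatocyte Nampt. By the labels no group was left unfasted, so a change from the unfasted state was not tested. NAMPT LKO Fasting against WT Refed livers came from the same fit, and comparisons that share a group are not independent.

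Libraries held 30603080 to 43434139 counted reads. Nampt, the targeted gene, was 78.0 and 67.8 CPM in WT Refed, 63.0, 73.4 and 141 CPM in WT Fasting and 12.1, 14.0, 11.8, 12.5 and 15.3 CPM in NAMPT LKO Fasting livers (all CPM are TMM-scaled). The log2 fold change between the fasted groups was -2.81 ± 0.22 (SE, adjusted p = 0.00102, edgeR quasi-likelihood test), and -2.37 without WT Fasting mouse 3. The 6 hepatocyte markers, such as Alb and Ttr, summed to 66660 to 117600 CPM in the 10 libraries, whereas the pancreas and adipose lists summed to at most 0.325 CPM. The 4 kidney and intestine genes, of which 1 passed the filter, summed to 71.0 to 218 CPM in NAMPT LKO livers. They reached at most 112 CPM in WT livers. NAMPT LKO mouse 5 had 21.1% of its counts on the mitochondrial chromosome against 7.42% to 12.9% in the other 9 libraries. NAMPT LKO mouse 3 had 14230 CPM of the 7 acute phase genes, against at most 5094 CPM in the other groups. The 5 cholangiocyte markers summed to 34.0 to 54.5 CPM in NAMPT LKO and 15.2 to 22.3 CPM in WT Fasting livers, and the 5 stellate cell markers to 203 to 271 against 170 to 222 CPM. In whole liver, fewer cells of a type and less RNA per cell cannot be told apart.

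Levels of different members were compared in RPKM, which divides the CPM by the gene length deposited with the counts. The members held 0.616% to 0.794% of the counted reads per library. A few genes carried each family, in mean RPKM over the 10 libraries. Gstp1, Gstm1 and Gstz1 held 33.8%, 26.5% and 13.7% of the summed GST RPKM, Ugt2b5, Ugt2b36 and Ugt2b1 held 32.5%, 18.1% and 10.8% of the UGT RPKM, and Sult2a8, Sult1a1 and Sult1d1 held 43.2%, 42.6% and 11.3% of the SULT RPKM. The order differed by group. In WT Fasting livers mean Sult1a1 (221 RPKM) stood above Sult2a8 (193 RPKM). In WT Refed livers Ugt2b34 (130 RPKM) stood above Ugt2b1 (122 RPKM). The order also depends on the length used. The deposited length was 757 bases for Gstp1 and 1665 bases for Gstz1, whereas their exons in GENCODE M21 cover 1548 and 5088 bases. In CPM per 1000 50-base windows that no other gene shares, counted over M21 transcripts, Gstm1 (783) stood above Gstp1 (579), Gsta3 (181) and Gstz1 (130), and Sult1a1 (239) above Sult2a8 (170) and Sult1d1 (61.0). On that scale Ugt2b5 (650) was followed by Ugt1a1 (212) and Ugt2b36 (202). Windows were matched on both strands, and 922 exonic bases of Ugt1a1 lie opposite the gene Gm20528. If reads were counted by strand, the Ugt1a1 value is overstated and its rank may fall. The strand setting is not known. The other 5 tested SULT members had mean levels of 0.322 (Sult1e1) to 5.68 RPKM (Sult1b1).

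**Figure D1:**
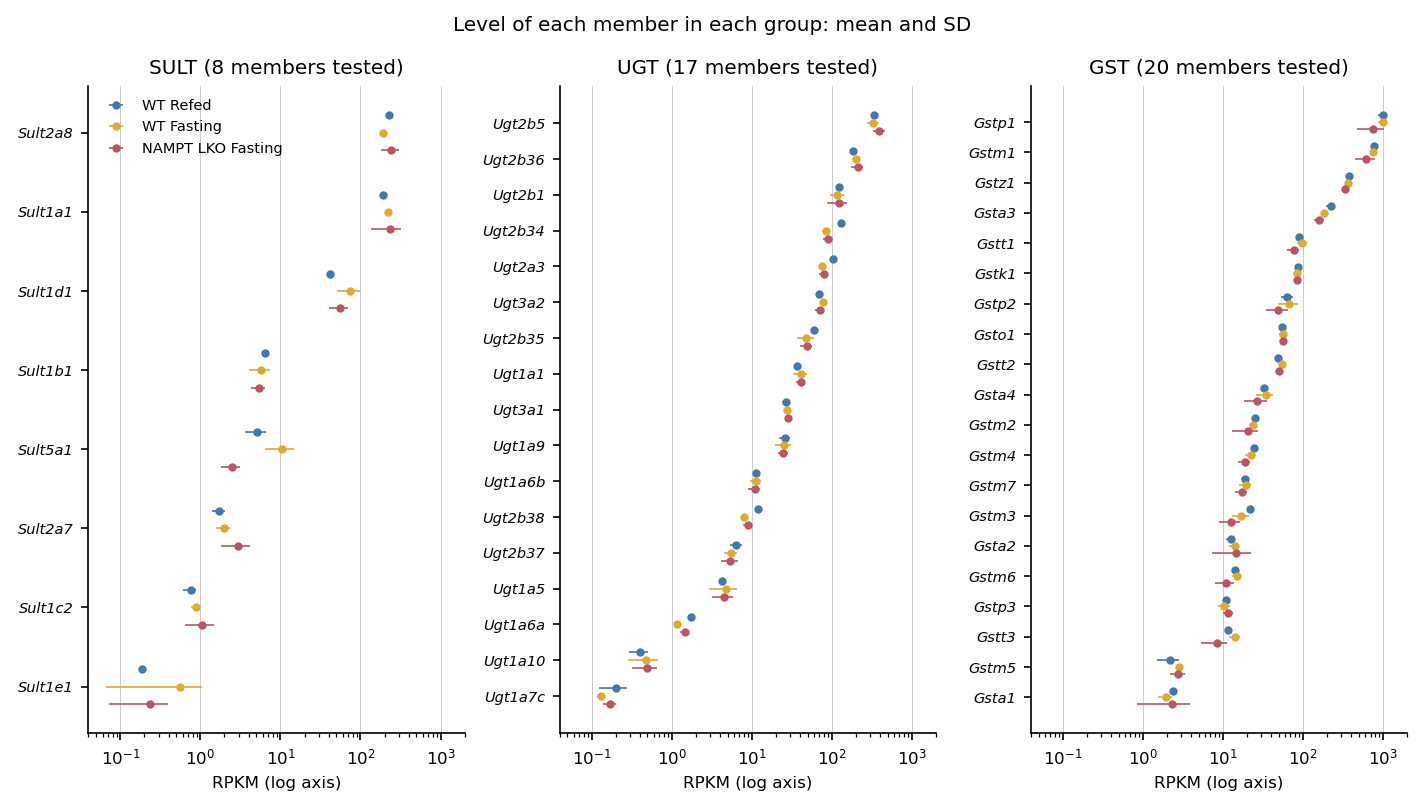
Mean RPKM (log axis) with SD of the 45 members tested, in WT Refed (n = 2), WT Fasting (n = 3) and NAMPT LKO Fasting (n = 5) livers, ordered within each family by the mean over the 10 libraries. Levels ran from 0.166 RPKM (Ugt1a7c) to 878 RPKM (Gstp1), and the groups lay close together for most members, with Sult5a1 set apart.

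The other 18 members did not pass the filter and no test was made of them. Sult1c1 and Sult3a2 had 0 reads in all 10 libraries, and Sult2a3 and Sult2a5 had 1 read each. Sult2a1, Sult2a2, Sult2a4 and Sult2a6 had 25, 3, 6 and 21 reads over the 10 libraries. These genes lie with Sult2a7 and Sult2a8 on chromosome 7. Of the windows of Sult2a1, Sult2a2, Sult2a4 and Sult2a5, 33.2%, 62.1%, 25.5% and 34.5% occur in other genes. The share was 8.36% for Sult2a3 (1 read), 6.63% for Sult2a6 (21 reads) and 1.96% for Sult2a8. Whether reads of these relatives were lost through shared windows was not tested. The highest level among the 18 was 0.681 CPM (Ugt1a2), and Sult3a1 reached 0.621 CPM in NAMPT LKO mouse 5 with 21 reads against 0 to 4 reads in each of the other libraries. Sult1e1, estrogen sulfotransferase, was tested only because WT Fasting mouse 2 had 1.49 CPM, and it was 0.0954 to 0.597 CPM in the other 9 libraries. Ugt1a7c likewise passed on 1.06 CPM in WT Refed mouse 2 alone.

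SULT enzymes act on phenols, steroids, bile acids and catecholamines. Sult2a8, of the hydroxysteroid branch, was 546 and 518 CPM in WT Refed, 471, 522 and 421 CPM in WT Fasting and 450, 570, 501, 546 and 1001 CPM in NAMPT LKO Fasting livers. Sult1a1, phenol sulfotransferase, was 262 and 304 CPM in WT Refed, 302, 362 and 348 CPM in WT Fasting and 305, 292, 228, 317 and 711 CPM in NAMPT LKO Fasting livers. For both genes NAMPT LKO mouse 5 stood above all other libraries, and the remaining 4 NAMPT LKO livers overlapped the WT livers. Sult1d1 was 101 and 96.5 CPM in WT Refed, 162, 264 and 135 CPM in WT Fasting and 97.8, 140, 99.0, 183 and 192 CPM in NAMPT LKO Fasting livers. Its 3 WT Fasting values lay above both WT Refed values, with a log2 fold change of 0.92 ± 0.35 (SE, adjusted p = 0.142, edgeR quasi-likelihood test), and it was called with limma's voomWithQualityWeights (adjusted p = 0.00901) and once the trend of counts with GC content had been removed per library (adjusted p = 0.0339 in edgeR). Without WT Fasting mouse 2 the log2 fold change was 0.59 (adjusted p = 0.349).

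Sult5a1 had the largest fold difference of the 45 members between the fasted groups. It lies on the minus strand of chromosome 8 (ENSMUSG00000000739, 123142847 to 123158315 in GRCm38), apart from the other Sult genes, and 1.49% of its 50-base windows also occur in another gene's transcripts. It was 6.99 and 10.6 CPM in WT Refed, 20.6, 10.9 and 24.2 CPM in WT Fasting and 4.73, 3.40, 5.65, 5.08 and 3.43 CPM in NAMPT LKO Fasting livers, with 106 to 1069 reads per library. All 5 NAMPT LKO values lay below all 5 WT values. Between the fasted groups the log2 fold change was -2.06 ± 0.26 (SE), with an unadjusted p of 8.4e-06 and an adjusted p of 0.0562 (edgeR quasi-likelihood), which missed the threshold of 0.05. The adjusted p ranged from 1.2e-09 (DESeq2) to 0.473 (the 6 libraries numbered 1 to 3, without a replicate block) over 22 alternatives, and it was called in 6 of them, among these the fit without WT Fasting mouse 2 (log2 fold change -2.33, adjusted p = 0.00726). Its log2 fold change stayed between -2.33 and -1.79. WT Fasting against WT Refed livers gave 1.08 ± 0.34 (SE, adjusted p = 0.0861), and NAMPT LKO Fasting against WT Refed livers gave -0.98 (adjusted p = 0.0596), both in the same edgeR test. The former was called with voomWithQualityWeights (adjusted p = 0.0417), edgeR's exact test (0.0435) and DESeq2 (0.0225), and without WT Fasting mouse 2 (0.0355). The WT Fasting values enter both fasting comparisons.

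**Figure D2:**
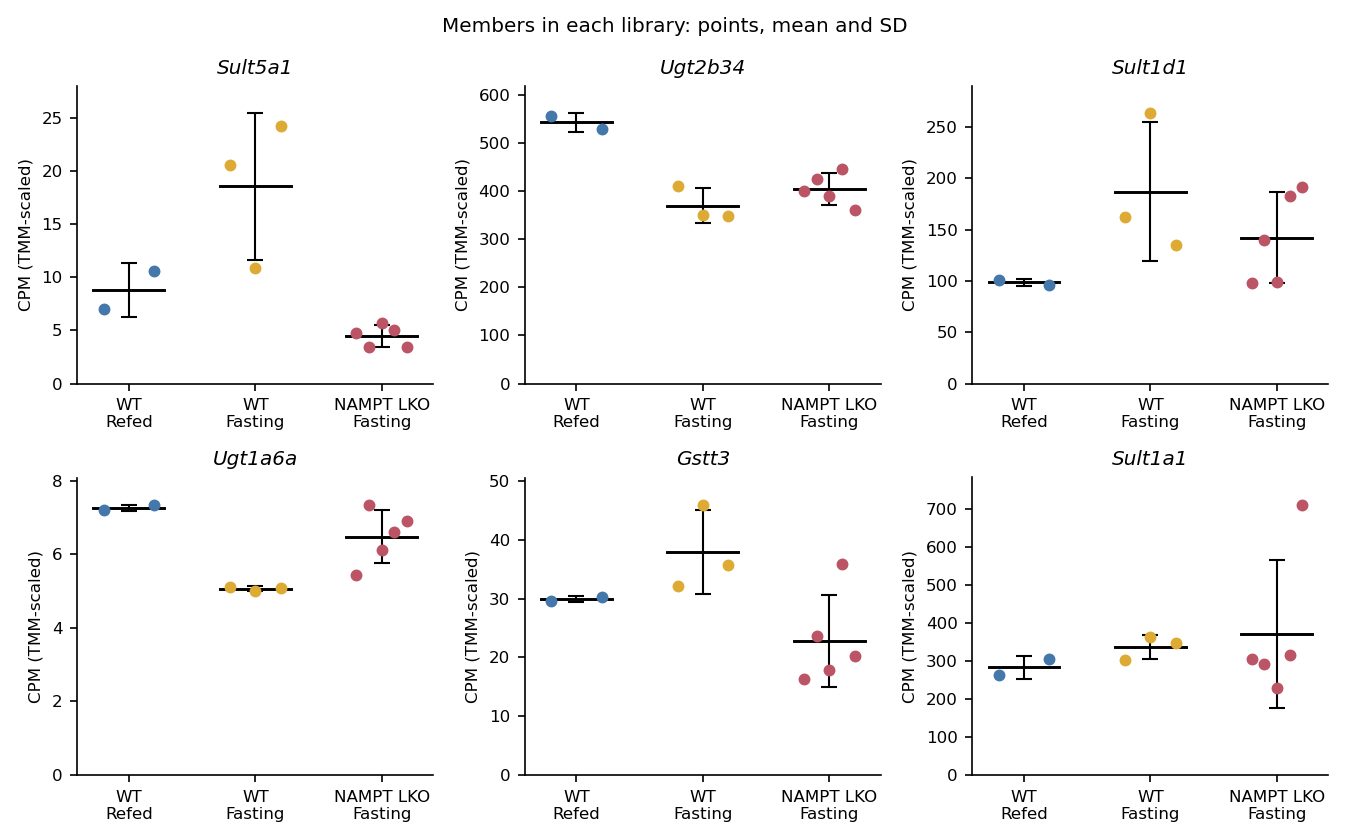
TMM-scaled CPM of 6 members in each library, with 1 point per mouse and the mean and SD of each group (WT Refed n = 2, WT Fasting n = 3, NAMPT LKO Fasting n = 5). The NAMPT LKO points of Sult5a1 lie at or under 5.65 CPM, below every WT point, the WT Refed points of Ugt2b34 lie above all other points, and the highest Sult1a1 point, 711 CPM, is NAMPT LKO mouse 5.

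The bases before the start of Sult5a1 are shown because this member differed most between the fasted groups, and those of Ugt2b34 because it alone was called between the WT groups. The first runs from 200 to 36 bases before the RefSeq start, at chr8:123158316-123158480, and the second from 200 bases before the start to the last base before it, at chr5:86906938-86907137, both on the minus strand of GRCm38.p6 and 5′ to 3′. A search for the antioxidant and dioxin response cores and AGGTCA repeats described below found none of them in the 250 bases before either start, so no base is in capitals.
Sult5a1: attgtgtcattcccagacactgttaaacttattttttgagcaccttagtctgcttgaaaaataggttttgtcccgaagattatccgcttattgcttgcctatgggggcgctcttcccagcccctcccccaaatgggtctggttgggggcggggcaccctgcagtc
Ugt2b34: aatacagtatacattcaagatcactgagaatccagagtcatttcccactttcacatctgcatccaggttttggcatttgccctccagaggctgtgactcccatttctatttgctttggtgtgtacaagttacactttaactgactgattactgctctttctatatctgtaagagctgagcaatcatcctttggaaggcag

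UGT enzymes of the 2B branch glucuronidate steroids, bile acids and drugs, and the 7 Ugt2b genes and Ugt2a3 lie together on chromosome 5. Ugt2b5 was 643 and 588 CPM in WT Refed, 730, 588 and 539 CPM in WT Fasting and 803, 845, 634, 818 and 668 CPM in NAMPT LKO Fasting livers. Ugt2b36 was 376 and 359 CPM in WT Refed, 463, 415 and 382 CPM in WT Fasting and 465, 477, 379, 520 and 394 CPM in NAMPT LKO Fasting livers. Ugt2b1 was 298 and 312 CPM in WT Refed, 355, 337 and 232 CPM in WT Fasting and 296, 392, 199, 428 and 324 CPM in NAMPT LKO Fasting livers. Fasted groups overlapped for all of these, and Ugt2b5 had the largest log2 fold change of the 3 between them, at 0.28 ± 0.14 (SE, unadjusted p = 0.0665, adjusted p = 0.837, edgeR quasi-likelihood test).

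Ugt2b34 was lower in fasted than in refed WT liver. It was 556 and 529 CPM in WT Refed, 411, 351 and 347 CPM in WT Fasting and 399, 425, 390, 446 and 361 CPM in NAMPT LKO Fasting livers, so that both WT Refed livers lay above all 8 fasted livers. The log2 fold change of WT Fasting against WT Refed livers was -0.55 ± 0.13 (SE, adjusted p = 0.0292), and that of NAMPT LKO Fasting against WT Refed livers was -0.43 (adjusted p = 0.0436), both in edgeR. The second call was lost in most fits that left out a library, as listed below. The fasted groups differed by 0.13 ± 0.11 (SE, adjusted p = 0.854), and by 0.04 (GC trend removed) to 0.213 (without WT Fasting mouse 1) over 22 alternatives, none of which called it. The difference was 0.086 without WT Fasting mouse 3. The call between the WT groups was lost without WT Refed mouse 1 (adjusted p = 0.192) or mouse 2 (adjusted p = 0.175), without WT Fasting mouse 2 (adjusted p = 0.102) or mouse 3 (adjusted p = 0.0784), and with the GC trend removed (adjusted p = 0.109), while its log2 fold change stayed between -0.65 and -0.52. The gene (ENSMUSG00000029260) spans 86889767 to 86906937 on the minus strand of chromosome 5, and 1.44% of its windows are shared with other genes.

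Ugt2b38, Ugt2a3 and Ugt1a6a had the same order of the WT groups without a call. Ugt2b38 was 21.9 CPM in both WT Refed livers and 14.7, 14.9 and 16.4 CPM in WT Fasting livers, with a log2 fold change of -0.52 ± 0.15 (SE, adjusted p = 0.0684, edgeR). Ugt2a3 was 202 and 228 CPM in WT Refed and 170, 166 and 148 CPM in WT Fasting livers, with a log2 fold change of -0.41 (adjusted p = 0.173, edgeR). DESeq2 called Ugt2b38 (adjusted p = 0.0248) and voomWithQualityWeights called both (adjusted p = 0.00744 and 0.0424). Of the Ugt2b38 windows 37.4% occur in other transcripts, mostly of Ugt2b5, so that its reads may be in part misplaced or lost, which was not tested.

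The Ugt1a locus on chromosome 1 makes 9 enzymes from 1 shared 3′ end. Each Ugt1a gene has its own first exon of 879 to 954 bases, which encodes the substrate-binding part, spliced to the same exons 2 to 5 that begin at chr1:88215044 of GRCm38. The splice junctions of 4 members show what a read can and cannot tell apart. They were read from GENCODE M21 transcripts, with the last 30 bases of the first exon in lower case and the first 20 bases of the shared exon in capitals.
Ugt1a1: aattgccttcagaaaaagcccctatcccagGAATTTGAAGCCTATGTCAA
Ugt1a6a: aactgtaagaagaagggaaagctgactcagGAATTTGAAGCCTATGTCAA
Ugt1a6b: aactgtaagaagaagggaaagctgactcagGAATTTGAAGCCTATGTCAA
Ugt1a9: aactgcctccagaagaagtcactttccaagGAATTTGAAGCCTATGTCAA

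Ugt1a6a and Ugt1a6b are identical over these bases, as are Ugt1a2 and Ugt1a5, whereas Ugt1a1 and Ugt1a9 differ. The 9 genes share 52.1% (Ugt1a6a) to 80.2% (Ugt1a1) of their 50-base windows with other genes, the largest part of it with another Ugt1a gene. Reads inside the shared exons belong to all 9 gene models, so if such reads were left uncounted the deposited RPKM, which divides by the whole deposited gene length, understates Ugt1a levels. Per 1000 unshared windows, mean levels were 212 CPM for Ugt1a1, the bilirubin-conjugating form, 69.2 CPM for Ugt1a9, 57.0 CPM for Ugt1a6b and 13.1 CPM for Ugt1a5, and at most 2.95 CPM for the other 5 genes. That of Ugt2b5 on the same scale was 650 CPM. Of the Ugt1a1 windows 58.2% are shared with Ugt1a6a, and others only lie opposite Gm20528. The 212 CPM of Ugt1a1 is therefore overstated if reads were counted by strand, which is not known.

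Ugt1a1 was 77.9 and 81.3 CPM in WT Refed, 111, 91.0 and 75.1 CPM in WT Fasting and 82.1, 100.0, 90.7, 109 and 93.5 CPM in NAMPT LKO Fasting livers, and the WT Fasting values overlapped both other groups. Ugt1a6a, a phenol-conjugating form, was 7.22 and 7.33 CPM in WT Refed, 5.13, 4.99 and 5.10 CPM in WT Fasting and 5.45, 7.34, 6.13, 6.60 and 6.92 CPM in NAMPT LKO Fasting livers, from 161 to 322 reads per library. The 3 WT Fasting values were below all other values. Its log2 fold change was -0.52 ± 0.16 (SE, unadjusted p = 0.0083, adjusted p = 0.0813) in WT Fasting against WT Refed and 0.35 ± 0.13 (SE, unadjusted p = 0.0219, adjusted p = 0.801) in NAMPT LKO Fasting against WT Fasting livers (edgeR quasi-likelihood), and the WT Fasting livers enter both. The first became a call with DESeq2 (adjusted p = 0.0353) and without NAMPT LKO mouse 5 (adjusted p = 0.0373 in edgeR). The reads of Ugt1a6b, which shares 79.6% of its windows with Ugt1a6a, gave 0.08 and -0.04 on the log2 scale. Ugt1a6a itself shares 51.1% of its windows with Ugt1a7c, whose reads gave -0.56 and 0.41. Ugt1a7c was not called in either comparison and was at most 1.06 CPM in any library.

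A short search was made of the 250 bases before the start of 55 members with a RefSeq promoter window, on both strands and with overlaps allowed. It used an antioxidant response core (TGACNNNGC), a dioxin response core (TNGCGTG) and 2 direct repeats of AGGTCA set 4 bases and 1 base apart. These were chosen after a longer list had been looked at. The antioxidant core lay before Gsta3, Gstm5 and Gstm7 (10.2% of all 32851 windows), the dioxin core before Gsta2, Sult1d1 and Ugt1a5 (4.10% of all windows), and the repeats before no member (0.015% and 0.033% of all windows).

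GST enzymes conjugate glutathione to electrophiles, and Gstz1 also isomerises a product of tyrosine breakdown. Gstp1 was 668 and 787 CPM in WT Refed, 730, 715 and 845 CPM in WT Fasting and 719, 667, 576, 711 and 241 CPM in NAMPT LKO Fasting livers. Gstm1 was 1049 and 1058 CPM in WT Refed, 1077, 1021 and 1036 CPM in WT Fasting and 1118, 895, 713, 1051 and 638 CPM in NAMPT LKO Fasting livers. Gstz1 was 622 and 597 CPM in WT Refed, 576, 664 and 599 CPM in WT Fasting and 538, 552, 534, 645 and 674 CPM in NAMPT LKO Fasting livers. NAMPT LKO mouse 5 was lowest for Gstp1 and Gstm1 and highest for Gstz1, and the log2 fold changes between the fasted groups were -0.39, -0.24 and -0.06, or -0.13, -0.03 and -0.08 with NAMPT LKO mice 3 and 5 left out. Gstp1 shares 33.7% of its windows with Gstp2, Gstp2 shares 49.1% of its own with Gstp1, and Gsta1 shares 90.5%, mostly with the gene Gm3776, so their split is uncertain.

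The theta-class genes Gstt3 and Gstt1 were the GST members with the lowest p between the fasted groups. Gstt3 was 29.6 and 30.2 CPM in WT Refed, 32.1, 46.0 and 35.8 CPM in WT Fasting and 16.4, 23.6, 17.8, 35.8 and 20.2 CPM in NAMPT LKO Fasting livers. Only NAMPT LKO mouse 4 reached the WT range, and the log2 fold change was -0.74 ± 0.23 (SE, unadjusted p = 0.0079, adjusted p = 0.761, edgeR). Gstt1 was 134 and 132 CPM in WT Refed, 129, 156 and 173 CPM in WT Fasting and 123, 122, 95.1, 146 and 117 CPM in NAMPT LKO Fasting livers, a log2 fold change of -0.34 ± 0.14 (SE, unadjusted p = 0.0324, adjusted p = 0.827, edgeR). Neither was called under any alternative. Gstt2, from the same cluster on chromosome 10, gave -0.08, and Gstt4 was at most 0.0692 CPM.

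Over the members, WT Fasting livers were first tested against WT Refed livers. Of 45 members, 1 (2.22%) was called (edgeR quasi-likelihood, threshold 0.05). This was Ugt2b34, lower in WT Fasting livers, and no member was called higher. Of all 13444 genes 7.04% were called, and 4.36% were called lower. At an unadjusted p under 0.05, 6 members passed (13.3%), against 22.3% of all genes, with Sult1d1 and Sult5a1 higher and Ugt1a6a, Ugt2a3, Ugt2b34 and Ugt2b38 lower. The number called was 6 with voomWithQualityWeights, 4 with DESeq2, 2 with edgeR's exact test and 3 without NAMPT LKO mouse 5, fits that called 24.8%, 12.3%, 8.91% and 16.7% of all genes. It was 0 without WT Refed mouse 1 or mouse 2 or WT Fasting mouse 3, where 1.45%, 0.798% and 5.9% of all genes were called. For 13 members (28.9%) the WT groups did not overlap, against 49.7% of all genes. The median absolute log2 fold change was 0.20 over the members and 0.27 over all genes.

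Hepatocyte loss of Nampt in fasted liver was tested next. Of the 45 members 0 were called by edgeR's quasi-likelihood test, against 0.00744% of all genes, which is Nampt alone. At an unadjusted p under 0.05, 4 members passed (8.89%), against 6.03% of all genes, with Sult5a1, Gstt3 and Gstt1 lower and Ugt1a6a higher. DESeq2 and edgeR's exact test each called 1 member, Sult5a1, and voomWithQualityWeights called 0, against 0.18%, 0.179% and 0.00744% of all genes in these fits. For 2 members (4.44%), Sult5a1 and Ugt1a6a, the fasted groups did not overlap, against 3.99% of all genes. Of the 45 members, 1 was called between NAMPT LKO Fasting and WT Refed livers, Ugt2b34, against 11.2% of all genes. That call was lost without WT Refed mouse 1 or 2, WT Fasting mouse 2 or 3, or NAMPT LKO mouse 1, 2 or 3.

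**Figure D3:**
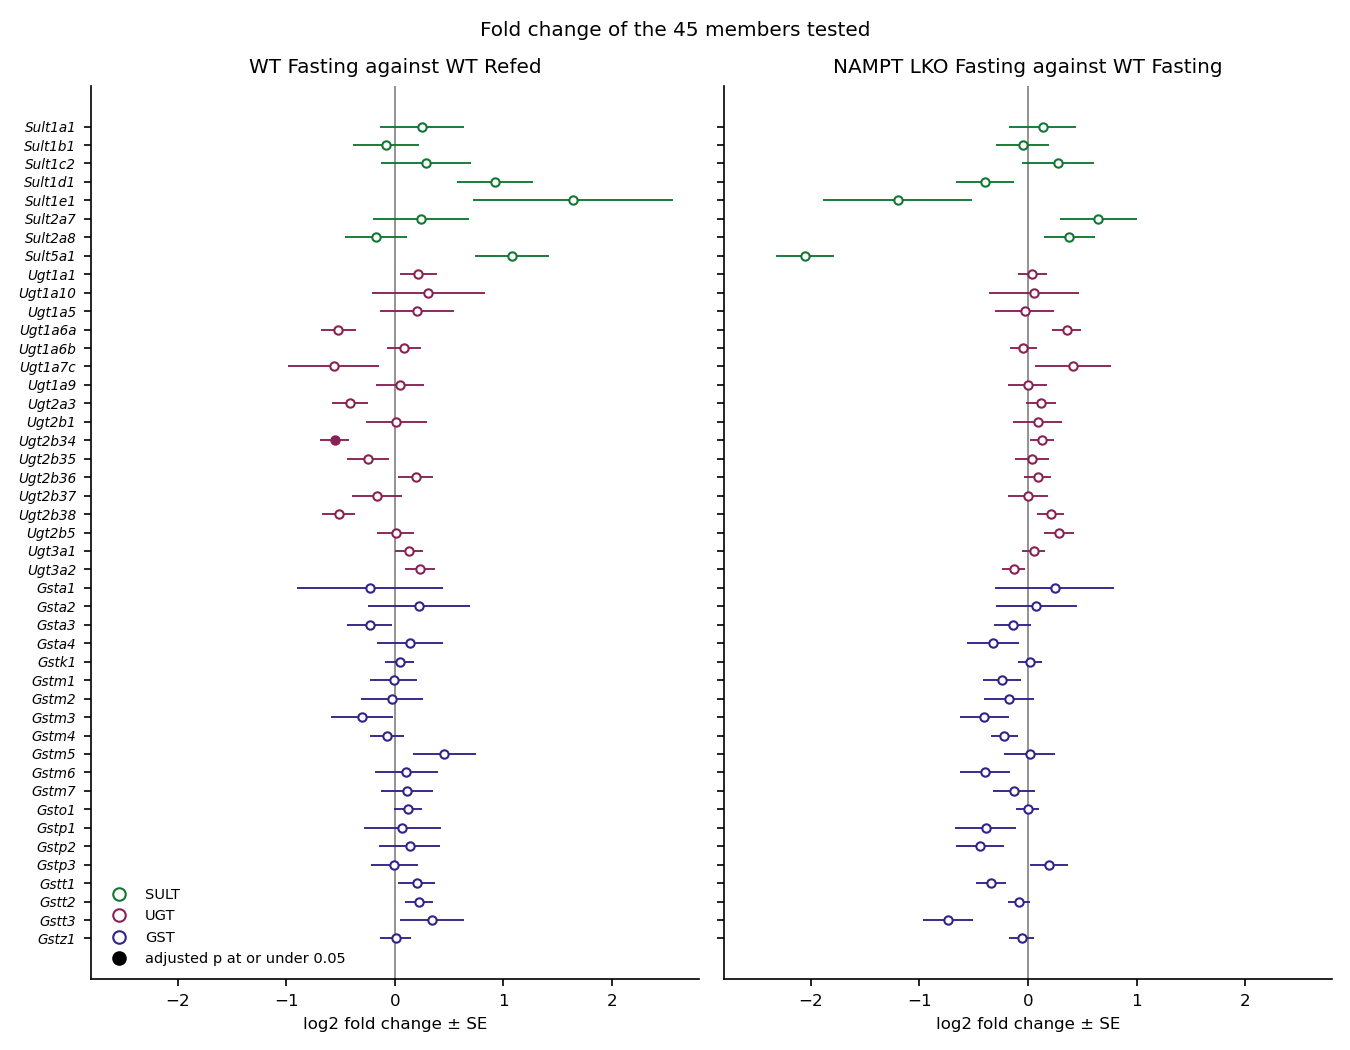
Log2 fold change with SE (horizontal axes) of the 45 members tested in WT Fasting against WT Refed livers (left) and NAMPT LKO Fasting against WT Fasting livers (right), with families in colour and filled points for an adjusted p at or under 0.05 in edgeR. Ugt2b34 on the left is the only filled point, and Sult5a1 on the right lies farthest from 0.

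By family, GST members were mostly lower in NAMPT LKO than in WT Fasting livers, with 15 of 20 below 0 and a median log2 fold change of -0.16, against 6713 of 13444 genes and a median of 0.00 over all genes. The direction of the GST median was the same under every scaling and without each library in turn, with 13 to 17 of 20 lower and a median of -0.21 to -0.08, and no GST member was called. Of the 17 UGT members, 12 were higher with a median of 0.06, but with the GC trend removed 8 were higher and 9 lower. The UGT median stayed above 0 without each library in turn, though it moved between 0.0193 (without NAMPT LKO mouse 2) and 0.167 (without WT Fasting mouse 1). It was 0.0257 without WT Fasting mouse 3, 0.0287 without NAMPT LKO mouse 4, 0.111 without NAMPT LKO mouse 3 and 0.139 without WT Fasting mouse 2. The 8 SULT members split into 4 higher and 4 lower. Between WT Fasting and WT Refed livers the medians were 0.27 for SULT, 0.01 for UGT and 0.09 for GST, against 0.04 for all genes. The medians and counts include Sult1e1 (1.64) and Ugt1a7c (-0.56). Each passed the filter on 1 library of the group where its mean was highest, WT Fasting and WT Refed, which favours these directions. The UGT median was -0.05 when counts were scaled by library size alone. It was -0.11 and -0.09 without WT Fasting mouse 1 and mouse 2, but 0.11 without WT Fasting mouse 3 and 0.07 with voomWithQualityWeights. The SULT median was 0.46 without WT Refed mouse 1 and 0.23 without WT Refed mouse 2. It was 0.20 both without WT Fasting mouse 2 and with library size alone. The GST median was 0.0295 without WT Refed mouse 1 and 0.0561 without WT Fasting mouse 3. It was 0.0014, with 10 members higher and 10 lower, without WT Fasting mouse 2.

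Summed over its members, GST reached 4036 and 3996 CPM in WT Refed, 3806, 4066 and 4018 CPM in WT Fasting and 3679, 3469, 2923, 3883 and 3179 CPM in NAMPT LKO Fasting livers. Only NAMPT LKO mouse 4 lay within the WT Fasting range. UGT sums were 2677 and 2606 CPM in WT Refed, 2791, 2526 and 2209 CPM in WT Fasting and 2760, 2966, 2274, 3080 and 2551 CPM in NAMPT LKO Fasting livers. SULT sums were 937 and 948 CPM in WT Refed, 972, 1187 and 944 CPM in WT Fasting and 875, 1024, 852, 1071 and 1938 CPM in NAMPT LKO Fasting livers. UGT and SULT sums of the fasted groups overlapped. NAMPT LKO mouse 3, with the high acute phase genes, held the lowest value of all 10 libraries for 17 of 45 members, and NAMPT LKO mouse 5, with the high mitochondrial share, held the highest for 9 and the lowest for 6. The cholangiocyte markers were also higher in NAMPT LKO livers, as given above, and the part of these values in the GST difference was not tested. Without mice 3 and 5, 15 of 20 GST members were lower, with a median of -0.10.

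**Figure D4:**
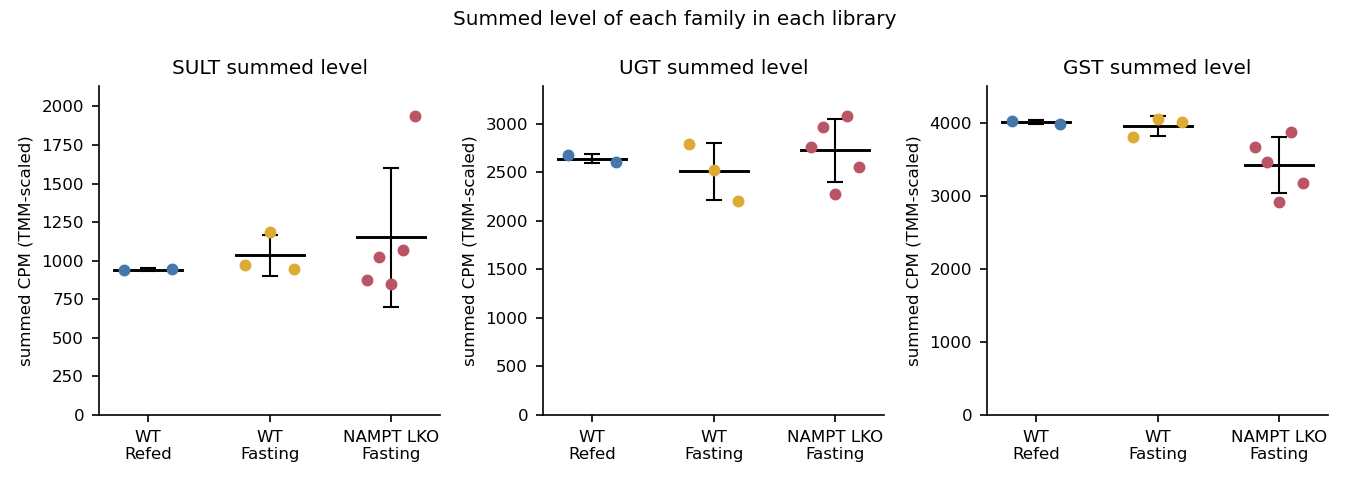
Summed TMM-scaled CPM of the 21 SULT, 20 UGT and 22 GST genes in each library, with 1 point per mouse and the mean and SD of each group (WT Refed n = 2, WT Fasting n = 3, NAMPT LKO Fasting n = 5). The SULT point at 1938 CPM is NAMPT LKO mouse 5, and 4 of 5 NAMPT LKO points for GST lie below the lowest WT point, 3806 CPM.

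Genes that supply, regulate or export for these enzymes were followed as lists. Of 64 such genes tested, 3 (4.69%) were called in WT Fasting against WT Refed livers (edgeR's quasi-likelihood test), against 7.04% of all genes, and 0 between the fasted groups, against 0.00744%. At an unadjusted p under 0.05, 14 (21.9%) passed between the WT groups and 5 (7.81%) between the fasted groups, against 22.3% and 6.03% of all genes, so that these shares were near those of all genes. Papss1, a PAPS synthase that makes the sulfate donor, was lower in fasted than in refed WT liver. It was 17.9 and 17.7 CPM in WT Refed, 6.01, 6.70 and 7.95 CPM in WT Fasting and 7.91, 6.12, 7.04, 5.94 and 6.95 CPM in NAMPT LKO Fasting livers, with a log2 fold change between the WT groups of -1.37 ± 0.17 (SE, adjusted p = 0.00134, edgeR), and it was called under all 20 alternatives. Papss2, the other PAPS synthase gene, was 112 and 121 CPM in WT Refed and 162, 126 and 124 CPM in WT Fasting livers, with a log2 fold change of 0.23 (adjusted p = 0.533, edgeR).

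Uxs1, which turns UDP-glucuronic acid into UDP-xylose, was also lower in fasted than in refed WT liver. It was 12.8 and 13.7 CPM in WT Refed, 7.98, 7.94 and 7.95 CPM in WT Fasting and 8.62, 7.24, 8.26, 9.72 and 8.16 CPM in NAMPT LKO Fasting livers, a log2 fold change between the WT groups of -0.74 ± 0.14 (SE, adjusted p = 0.013, edgeR). Without WT Refed mouse 1 or mouse 2 it was not called (adjusted p = 0.0812 and 0.142). The donor-making genes Ugp2 and Ugdh had log2 fold changes of 0.00 and -0.09 and were not called. All 8 fasted livers lay below both WT Refed livers for Papss1 and Uxs1.

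Nr1i3, which encodes CAR, was higher in fasted than in refed WT liver. It was 110 and 90.7 CPM in WT Refed, 188, 177 and 133 CPM in WT Fasting and 141, 124, 118, 139 and 104 CPM in NAMPT LKO Fasting livers. The log2 fold change between the WT groups was 0.72 ± 0.18 (SE, adjusted p = 0.0392, edgeR), and the call was lost in 6 of the 10 fits without a library, WT Refed mouse 1 (adjusted p = 0.13) and mouse 2 (0.35), WT Fasting mouse 1 (0.118) and mouse 2 (0.108) and NAMPT LKO mouse 2 (0.068) and mouse 3 (0.0588). It was also lost with library size alone (adjusted p = 0.0971) and in a fit of the WT groups only (0.0503). Between the fasted groups it was -0.41 ± 0.14 (SE, unadjusted p = 0.0155, adjusted p = 0.798, edgeR). Cyp2b10, the textbook CAR target, was 14.3 and 10.9 CPM in WT Refed, 18.2, 69.1 and 31.5 CPM in WT Fasting and 6.61, 11.7, 4.92, 11.4 and 14.96 CPM in NAMPT LKO Fasting livers. Its WT Fasting values lay above all others, the log2 fold changes being 1.65 ± 0.56 (SE, adjusted p = 0.106) against WT Refed and -1.996 ± 0.42 (SE, unadjusted p = 0.00056, adjusted p = 0.535) in NAMPT LKO against WT Fasting livers (edgeR quasi-likelihood). DESeq2 called both (adjusted p = 0.0129 and 0.00072), and without WT Fasting mouse 2 the edgeR values were 0.98 and -1.32.

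**Figure D5:**
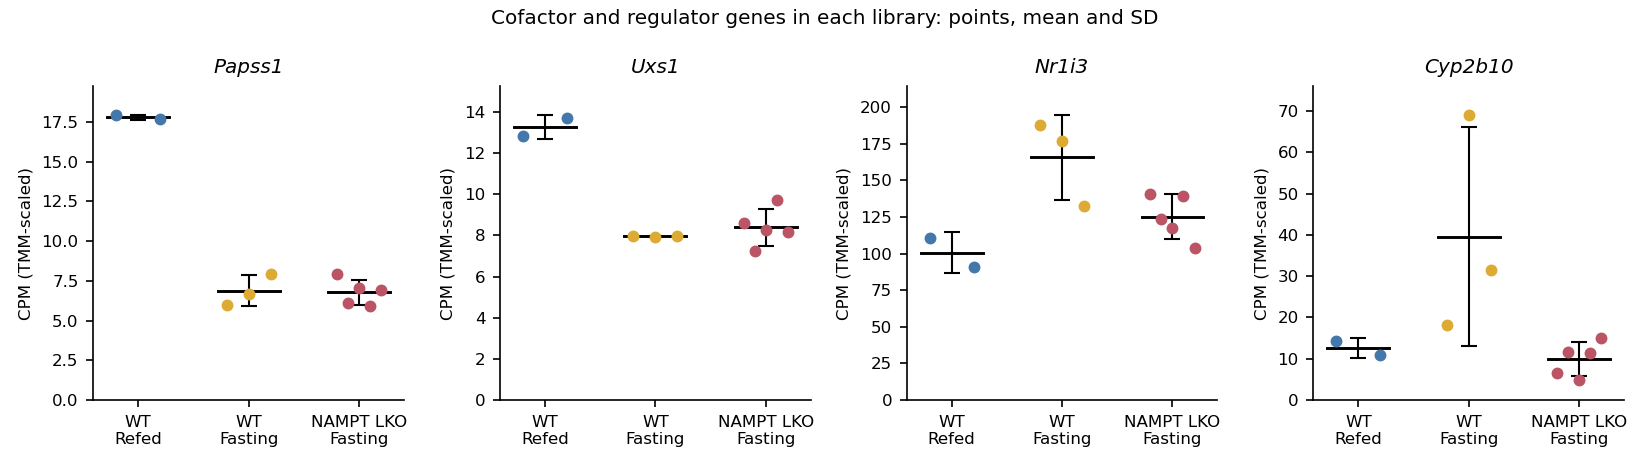
TMM-scaled CPM of Papss1, Uxs1, Nr1i3 and Cyp2b10 in each library, with 1 point per mouse and the mean and SD of each group (WT Refed n = 2, WT Fasting n = 3, NAMPT LKO Fasting n = 5). Papss1 and Uxs1 are lower in all 8 fasted livers than in the 2 WT Refed livers, and the highest Cyp2b10 point is 69.1 CPM in WT Fasting mouse 2.

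The other genes of these lists were not called in either comparison by edgeR's quasi-likelihood test, and their counts at an unadjusted p stand beside the 22.3% and 6.03% of all genes given above. Of 8 glutathione supply genes, including Gclc and Gclm of the rate-limiting enzyme, 1 passed an unadjusted p under 0.05 between the WT groups (Chac1, log2 fold change 1.09, adjusted p = 0.205) and 0 between the fasted groups. Of 4 microsomal and other GST-like genes, 1 passed it between the WT groups (Gstcd, -0.66, adjusted p = 0.102), and of 8 sulfate and PAPS supply genes 2 did, Papss1 and Bpnt1, a phosphatase that clears the by-product of sulfation (-0.39, adjusted p = 0.0644). Of 6 UDP-glucuronate supply genes Uxs1 alone did.

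Of 13 regulators, 5 passed an unadjusted p under 0.05 between the WT groups and 2, Nr1i3 and Keap1, between the fasted groups. Beside Nr1i3, these included Nr1i2, which encodes PXR (0.37, adjusted p = 0.199), Ppara (0.48, adjusted p = 0.107) and Nr1h3 (-0.41, adjusted p = 0.0545), in edgeR. Keap1, the inhibitor of NRF2, had a log2 fold change of -0.36 between the fasted groups (adjusted p = 0.788). Of 10 target genes of xenobiotic receptors, AHR, NRF2 or PPARA, 2 passed in each comparison, Cyp2b10 in both, with Cyp4a14 in the first (0.49, adjusted p = 0.201) and Hmox1 in the second (-0.72, adjusted p = 0.827). Of the 4 export pumps Abcc2 passed between the WT groups (0.39, adjusted p = 0.13), and of 11 other conjugating enzymes Glyat did (-0.38, adjusted p = 0.117), and As3mt between the fasted groups (0.36, adjusted p = 0.828).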

How the data were processed

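Per the study's methods, polyadenylated RNA, here from the livers of 10 mice, was read as single reads of 50 bases. The submitters' processing notes name STAR 2.5.1a and featureCounts 1.4.6-p5, while the study's methods name other versions and an Ensembl assembly. The strand setting is not given in the sources used here, so genes that overlap on either strand are uncertain. The authors deposited, per gene, a count of reads, a CPM value (the count scaled to a common library total) and an RPKM value (the CPM per 1000 bases of the deposited gene length, which differs from the GENCODE M21 exons for some members). The deposited counts were tested and the deposited RPKM set levels between genes. Symbols, exons and junctions came from GENCODE M21 (40340 of 41388 genes named), promoters from RefSeq (GRCm38.p6).

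After rRNA genes were left out, genes with any library above 1 CPM were scaled by TMM and entered edgeR 4.0.16 (quasi-likelihood, R 4.3.3) in one fit of 10 libraries and 3 group means, with Benjamini-Hochberg adjustment over 13444 genes. SE is the log2 coefficient divided by the root of F. Values in every library are given for members called in WT Fasting vs WT Refed or NAMPT LKO Fasting vs WT Fasting. They are also given for the 3 highest in mean RPKM per family and for the 5 smallest p between the fasted groups. Ugt2b38, Ugt2a3, Ugt1a1 and the list genes were added after their values were seen. For some of these only WT values or log2 fold changes are given. Members and lists were chosen with earlier results of these data known. Alternatives were DESeq2 1.42.0, limma 3.58.1 (voomWithQualityWeights), the exact test of edgeR, other scalings and filters, only the groups compared, a GC trend (loess span 0.5), leaving out each library and a replicate block; leaving out NAMPT LKO mice 3 and 5 was chosen after seeing the data. Scripts were tested on simulated data. No replicate pair agreed within sampling noise. One regulator and one promoter motif are not reported here.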

Additional observations from a re-analysis of the deposited data

Results flagged for a closer look

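In the NAMPT LKO Fasting group (n = 5), the distance of the highest or lowest library from its nearest neighbour was compared with the whole range of the group, for 45 members, Nampt and 3 family sums. It exceeded 0.71 of the range for 4 of these 49 values, and chance alone exceeds this limit in about 1 of 20 groups (0.05 of the values, or 2.45 here). All 4 were high values of NAMPT LKO mouse 5. Sult1b1, which sulfates thyroid hormones, was 24.3 CPM there against 13.2 to 14.3 CPM in the other 4 livers (0.902 of the range). Sult1a1 was 711 CPM against 228 to 317 CPM (0.816 of the range), and Sult2a8 was 1001 CPM against 450 to 570 CPM (0.782 of the range). The SULT sum, which includes these genes, was 1938 CPM against 852 to 1071 CPM (0.798 of the range). The same library had 21.1% mitochondrial counts, and its part in these values was not tested.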

How the results depend on the processing

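With the lone remaining WT Refed library assumed to vary like the other groups where one was left out, no call of a member changed direction. Of the 45 members, 1 was called in WT Fasting against WT Refed livers, and this became 6 with voomWithQualityWeights, 4 with DESeq2, 2 with the exact test of edgeR, 4 with only the groups compared, 3 without NAMPT LKO mice 3 and 5 and 0 to 3 without each library in turn (3 without NAMPT LKO mouse 5); with the GC trend removed the gene called was Sult1d1 in place of Ugt2b34. Between the fasted groups 0 became 1, Sult5a1, with the exact test, DESeq2, no low-count filter, filterByExpr and the GC trend removed, and 0 to 1 without each library. For NAMPT LKO Fasting against WT Refed, 1 became 8 with voomWithQualityWeights, 2 with DESeq2, 0 with library size alone, 2 with the GC trend removed, 5 without mice 3 and 5 and 0 to 2 without each library. Among the 64 pathway genes, 3 called between the WT groups became 19, 7, 7, 5 and 11 with voomWithQualityWeights, DESeq2, only the groups compared, the GC trend removed and mice 3 and 5 left out, and 1 to 11 without each library, while 0 between the fasted groups became 1, Cyp2b10, with the exact test, DESeq2 and no low-count filter. Over all genes tested in each fit, 946 called between the WT groups became 1649 with only the groups compared, 1646 with DESeq2, 3331 with voomWithQualityWeights, 2231 without NAMPT LKO mouse 5 and 194 and 107 without WT Refed mouse 1 and mouse 2. The share of all genes called between the WT groups, 7.04%, became 24.8% with voomWithQualityWeights, 12.3% with DESeq2, 8.91% with the exact test, 12.6% with only the groups compared, 10.9% with the GC trend removed and 15.6% without mice 3 and 5. Between the fasted groups 0.00744% became 0.179% with the exact test, 0.18% with DESeq2, 0.0649% with no low-count filter, 0.0185% with filterByExpr and 0.0223% with the GC trend removed. For NAMPT LKO Fasting against WT Refed 11.2% became 31.8% with voomWithQualityWeights, 16.8% with DESeq2, 10.6% with library size alone, 15.5% with the GC trend removed and 17.4% without mice 3 and 5. The cause of these changes was not tested.

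Deviations from the group means correlated at 0.0764, 0.162 and 0.0968 between fasted libraries of the same number and at -0.117 to -0.0118 between those of different numbers, so that each library correlated best with its own number. Deviations from a group mean cancel within the group, so positive same-number values force negative values on average between different numbers. The negative signs therefore add no evidence. Some matching of the libraries always correlates best, and how often this falls on equal numbers by chance was not tested. The match is at most a hint from the data. Since the labels name no shared litter, day or batch and not every value exceeded 0.1, the numbers were not taken to pair the mice. In the 6 libraries numbered 1 to 3, Nampt was -2.78 (adjusted p = 0.106, edgeR) with a replicate block and -2.87 (adjusted p = 0.269) without it, and no member was called in either.

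Members with log2 fold changes near 0, none of them called, changed sign. Between the WT groups Gstz1 was -0.058, -0.0072, -0.0001, -0.0053 and -0.016 with library size alone, no low-count filter, filterByExpr, only the groups compared and the GC trend removed, and -0.054 to 0.041 without each library. Ugt2b1 was -0.053, -0.0013 and -0.0002 and Ugt2b5 was -0.055, -0.0064 and -0.0057 with library size alone, no low-count filter and only the groups compared, and -0.11 to 0.17 and -0.14 to 0.089 without each library. Gstm1 ranged from -0.045 to 0.0038 and Gstp1 from -0.056 to 0.19 without each library. Between the fasted groups Sult1a1 was -0.22 with voomWithQualityWeights, -0.30 with the replicate block, -0.29 in the same 6 libraries without it, -0.15 without NAMPT LKO mice 3 and 5, and -0.24 to 0.27 without each library. Ugt2b1 was -0.0012, -0.0059, -0.089 and -0.059 with voomWithQualityWeights, the GC trend removed, the replicate block and the same 6 libraries, and -0.079 to 0.22 without each library, and Gstz1 ranged from -0.11 to 0.0034. The 2 WT Refed livers limit every comparison with that group.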

Other observations

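Within groups, members varied somewhat more than the other genes tested in the fasted livers. The median coefficient of variation was 15.5% over the 45 members and 12.2% over all 13444 genes in WT Fasting livers, 23.5% and 18.6% in NAMPT LKO Fasting livers, and 4.47% and 6.66% in the 2 WT Refed livers. Across the 45 members, the log2 difference of NAMPT LKO mouse 5 from the mean of the other 4 NAMPT LKO livers had a Spearman rho of -0.26 with exonic GC content, and across 13369 genes with a GC value it was -0.57. These are descriptions across genes of the same libraries, which are not independent replicates.

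Gsta1 and Gsta2 were lowest in that library, at 0.414 and 6.53 CPM against 1.03 to 3.42 CPM and 11.1 to 28.0 CPM in the other NAMPT LKO livers. Gstm2 was highest in NAMPT LKO mouse 4, at 56.6 CPM against 25.0 to 34.8 CPM in the other 4.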
